A study of Mus musculus with 6 samples.

Results

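Rab GTPases were examined in HT22 cells, an immortalized mouse hippocampal neuronal line, with and without aluminum. The members were taken by symbol: every gene listed as Rab followed by a number, with or without a letter. This rule found 59 members among the 21878 gene symbols of the expression table. RNA was measured in 6 libraries, 3 from control cells and 3 from cells given 120 µM aluminum maltolate (Al) for 24 h. They are the input libraries of a MeRIP-seq experiment, that is, RNA that was not enriched for methylated transcripts. The sample names carry only the letters C and M, read here as control and aluminum maltolate. The study's methods use the name control for cells in plain DMEM and list a maltolate control separately, and the labels do not say which of them the C libraries are. If they are the former, aluminum and its carrier cannot be told apart. All libraries come from 1 cell line, so P values measure the spread between cultures of that line.

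Rab proteins are small GTPases of membrane traffic. Each one is carried to membranes by a lipid anchor, is loaded with GTP by a guanine nucleotide exchange factor (GEF), and in that form recruits effectors that move, tether or fuse vesicles. A GTPase-activating protein (GAP) ends the cycle, and GDI proteins take the GDP form off the membrane. Different Rab proteins mark different compartments, and close paralogs often share one, which is why the members are ordered here by compartment and then by paralog family. In neurons the family is best known for the Rab3 and Rab27 proteins of regulated secretion and for the endosomal Rab5, Rab4, Rab11 and Rab7.

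The libraries rested on totals of 38059492 to 44556768 reads in the control group and 21125631 to 26670978 in the Al group, as recovered from the FPKM values. The 50 most abundant genes held 18 to 19.4% of the summed FPKM in control libraries and 30 to 32.5% in Al libraries, so the choice of scaling bears on every fold change below. Levels are given as FPKM divided by a size factor per library, a scale per length and comparable between genes. Of 15 neuron markers, 14 stayed under 1 on this scale in every library, and Snap25 and Nefm were at 0 in all. The summed level of the 15 was 4.68 to 5 in control and 3.71 to 5.62 in Al libraries, nearly all of it Tubb3. Markers of astrocytes, oligodendrocytes and microglia summed to 1.83 at most, whereas 5 fibroblast markers summed to 1710 to 2700 in control and 3030 to 4300 in Al libraries, led by Col1a1 and Col1a2. Among the fibroblast markers Col1a1 was called higher with Al, and Pdgfra, Dcn and Lum were called lower. Of the other markers Sox10 and Cx3cr1 were called higher, at means of 0.506 and 0.647 in Al libraries. Their part in the results on the Rab genes was not tested. In RNA from whole cultures, fewer cells of a type and less RNA per cell cannot be told apart.

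Of the 59 members, 57 had a read in at least 1 library, 47 passed the filter of a mean FPKM of at least 0.1 and were tested, and 40 had a mean FPKM of at least 1. A gene was called at an adjusted P under 0.05 (limma, Benjamini-Hochberg over 12889 tested genes) and an absolute log2 fold change over 0.58. By this rule 10 Rab members were higher and 13 lower with Al, and 24 were not called. Among all tested genes 25.5% were called higher and 23.7% lower, so the share of Rab members called in either direction was near the background. The median log2 fold change was -0.12 over the 47 members and 0.03 over all tested genes. Levels did not overlap between the groups for 17 members that were higher and 16 that were lower, against 35.1% and 33.1% of all tested genes. The counts depended on scaling, for the Rab members as for all genes. With FPKM as deposited 5 members were higher and 22 lower, against 13.5% and 41.3% of all tested genes. With TPM the counts were 0 and 31, against 8.85% and 52.2%. With quantile normalization they were 9 and 17, against 21.3% and 23.2%, and with values centred within bins of GC content 12 and 11, against 32% and 18.3%. These scalings shifted the median of all genes by -0.48, -0.77, -0.04 and 0.14 in log2 units. The 13 members called lower were also called lower with quantile normalization. Centring on GC content kept 11 of these calls and lost those of Rab1b and Rab6a. All 13 were called lower with TPM and unscaled FPKM as well. Since these move genes downward as a whole, a lower call could hardly be lost there. The 10 called higher had a positive log2 fold change under every scaling named above, except Rab40c at -0.20 with TPM.

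**Figure D1:**
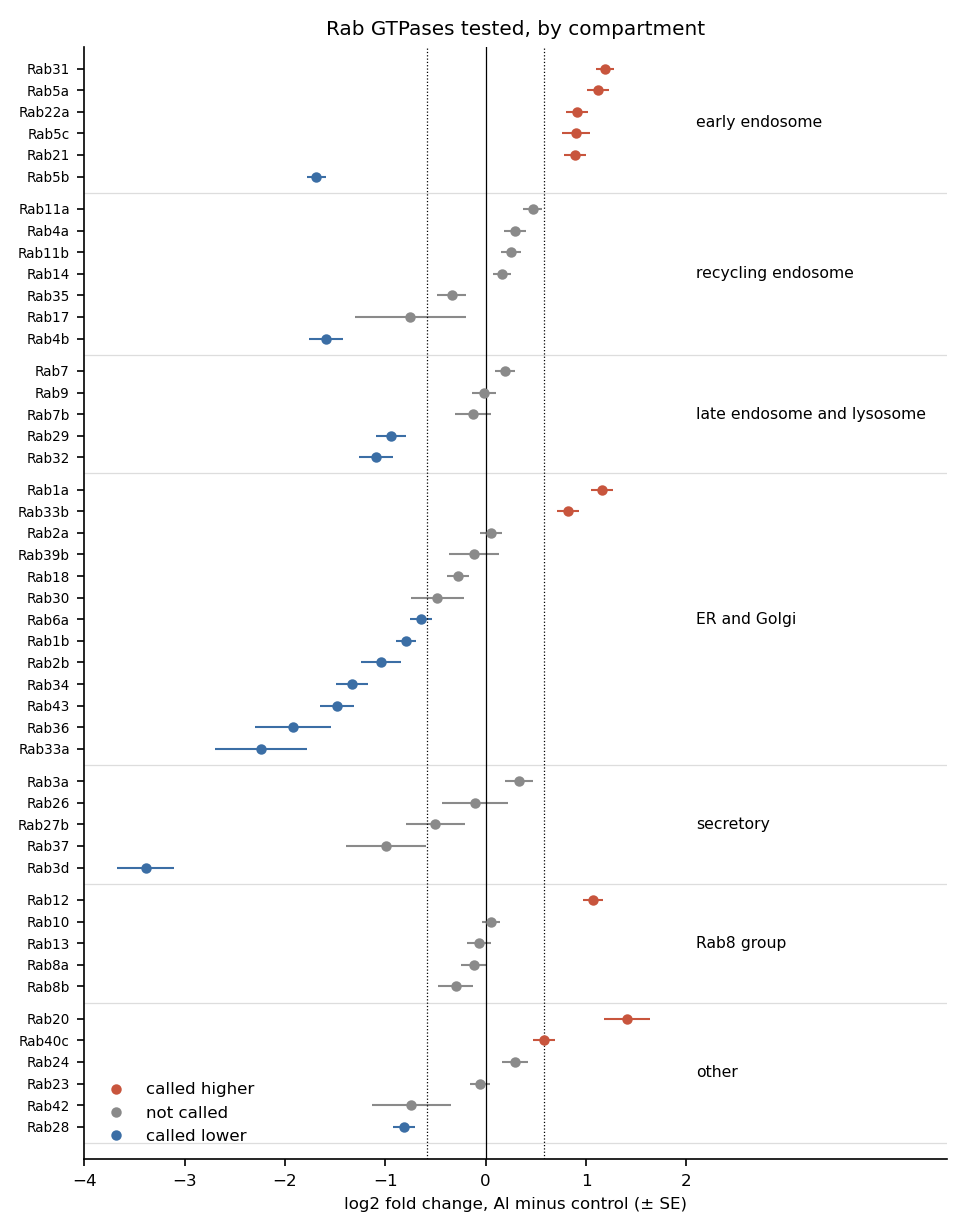
The log2 fold change (Al minus control, x axis) of the 47 tested Rab members, with SE as bars, grouped by compartment. Red points were called higher, blue points lower and grey points were not called. Dotted lines mark 0.58 in either direction. In the early endosome group 5 of 6 points lie right of the dotted line, and Rab5b stands alone on the left at -1.69.

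Most early endosome members rose. All 6 members were tested, of which 5 rose and Rab5b fell (83.3% and 16.7%, against 25.5% and 23.7% of all tested genes), and the median log2 fold change was 0.90. The 3 Rab5 proteins direct the fusion of early endosomes with each other and with incoming vesicles. The coding sequence around the phosphate-binding loop is shown for the 3 paralogs because it is the part that every Rab protein keeps, and because it shows how far their transcripts still differ. The stretches are 36 bases from GENCODE on GRCm38, and capitals mark positions at which the paralogs differ.
Rab5a: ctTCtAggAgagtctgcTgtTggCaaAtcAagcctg
Rab5b: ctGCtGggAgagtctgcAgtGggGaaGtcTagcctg
Rab5c: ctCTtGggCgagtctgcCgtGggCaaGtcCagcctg
Of the 36 positions 9 differed, 8 of them at the third base of a codon, and 0 of the encoded residues differed. Rab5a lies at chr17:53479234-53507680 on the plus strand, Rab5b at chr10:128677175-128696264 and Rab5c at chr11:100715009-100738215, both on the minus strand. Over the whole protein, identity was 81.9% between Rab5a and Rab5b, 80.8% between Rab5a and Rab5c and 77.8% between Rab5b and Rab5c.

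Rab5c had the highest control level of all members. Its scaled FPKM was 79.5, 81.7 and 87.3 in control libraries and 165, 177 and 126 in Al libraries. The groups did not overlap, and the third Al library was the lowest of its group. The log2 fold change was 0.90 ± 0.14 (SE, limma adjusted P = 0.00073), and 0.29 with quantile normalization, where the call was lost. Rab5a was at 17.3, 18.1 and 21.5 in control and at 43.4, 40.7 and 39.9 in Al libraries. Every Al library was above every control library, with a log2 fold change of 1.12 ± 0.11 (limma adjusted P = 5.02e-05). Rab5b went the other way, from 23.0, 21.3 and 21.3 in control to 6.89, 6.74 and 6.53 in Al libraries. Its libraries within each group lay close together, and it fell by 1.69 ± 0.095 on the log2 scale (limma adjusted P = 6.69e-06). In control cells the ranges of Rab5a and Rab5b met, and in Al cells Rab5a was the higher in every library. The gene Gm13991 carries a near-identical copy of 648 aligned bases of Rab5b and has no row of its own in the table, so reads of Rab5b are uncertain to that extent.

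Rab31, a close relative of Rab22a that acts between the trans-Golgi network and endosomes, was at 42.4, 42.5 and 44.7 in control and 98.2, 97.7 and 100.3 in Al libraries. Both groups were tight and far apart, and the log2 fold change was 1.19 ± 0.089 (limma adjusted P = 1.79e-05). Rab22a, which sorts cargo in early endosomes, rose from a mean of 19.7 to 37.2, a log2 fold change of 0.91. Rab21, known for the traffic of integrins, rose from 27.6 to 51.4, a log2 fold change of 0.89. With TPM the log2 fold changes of the 5 members that rose were between 0.11 and 0.41 and none was called, while Rab5b was still called. With FPKM as deposited Rab5c, Rab21 and Rab22a were not called either (0.41, 0.41 and 0.42).

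**Figure D2:**
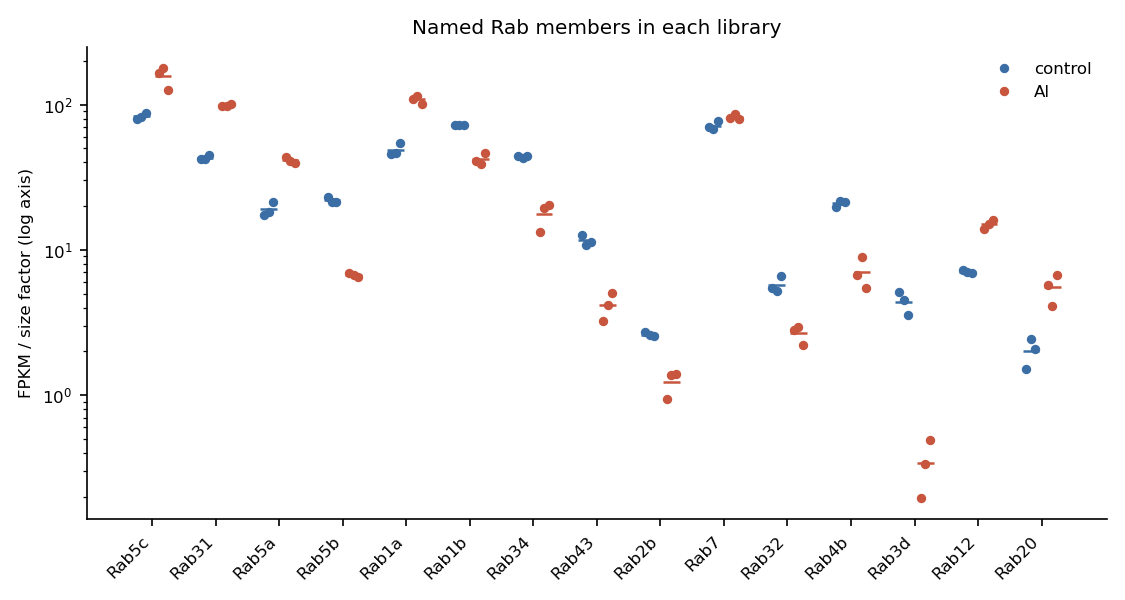
FPKM divided by size factor (log axis) of 15 Rab members in each library, blue for 3 control and red for 3 Al libraries, with the group mean as a bar. The members are those called with an absolute log2 fold change of at least 1 and a mean FPKM of at least 1, and the 5 with the highest control level. The groups are apart for all 15, most narrowly for Rab7 (67.9 to 77.2 against 79.0 to 86.0).

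Among the recycling endosome members only Rab4b was called. Of 9 members 7 were tested, 0% were called higher and 14.3% lower, against 25.5% and 23.7% of all tested genes, and the median log2 fold change was 0.16. The 2 Rab4 proteins act in rapid return of receptors to the cell surface. Rab4a lies at chr8:123805985-123835287 on the plus strand and Rab4b at chr7:27168424-27178896 on the minus strand. The same loop is shown for this pair, with capitals where the paralogs differ.
Rab4a: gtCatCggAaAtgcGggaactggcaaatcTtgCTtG
Rab4b: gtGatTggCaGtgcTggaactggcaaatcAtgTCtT
Here 9 of 36 positions differed, 7 of them at the third base of a codon, and 1 residue differed. The whole proteins were 84.9% identical. Rab4b was at 19.7, 21.8 and 21.3 in control and 6.67, 8.88 and 5.43 in Al libraries. No Al library came near the control range, and the gene fell by 1.59 ± 0.17 on the log2 scale (limma adjusted P = 7.99e-05). Rab4a had means of 12.3 and 15.0, a log2 fold change of 0.29 that stayed under the threshold of 0.58 (limma adjusted P = 0.0472) and was -0.49 with TPM. The Gm21983 transcripts in GENCODE share 65.0% of the exon bases of Rab4b on the same strand, and that gene has no row of its own in the table.

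Rab11a and Rab11b, which mark the slower recycling route, had log2 fold changes of 0.47 (limma adjusted P = 0.00221) and 0.25. Neither reached 0.58, although in both every Al library was above every control library. With TPM the values were -0.31 and -0.53, and Rab11b was called higher with centring on GC content (0.63). Rab14, which acts between endosomes and the Golgi, had means of 35.9 and 40.2, and Rab35, another recycling Rab, had 37.6 and 29.8. Their log2 fold changes were 0.16 and -0.34, with no call, and that of Rab14 was -0.62 with TPM. TPM (-1.13), quantile normalization (-0.60) and unscaled FPKM (-0.83) each called Rab35 lower. Rab17 was low, at 36 reads at most in a library, and had a log2 fold change of -0.75 with an SE of 0.55.

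In the late endosome and lysosome group 5 of 7 members were tested, 0 were called higher and 2 lower (0% and 40%, against 25.5% and 23.7% of all tested genes), with a median log2 fold change of -0.13. The next counts are for all 47 tested Rab members, not for this group. At an unadjusted P under 0.05 and the same fold change, 10 were higher and 14 lower. Among all tested genes these shares were 26.2% and 24.4%. Limma voom on recovered reads gave 10 and 13, against 25.8% and 23.5% of all tested genes. Rab7, the main Rab protein of late endosomes and lysosomes, was at 69.6, 67.9 and 77.2 in control and 80.4, 86.0 and 79.0 in Al libraries. The ranges lay side by side without overlap, and the log2 fold change was 0.19 ± 0.10 (limma adjusted P = 0.123). With TPM its value was -0.59. Rab9, which returns cargo from late endosomes to the Golgi, had means of 9.47 and 9.39. Rab7b had means of 3.65 and 3.37.

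Both members called lower here belong to the subfamily of lysosome-related organelles. Rab32 was at 5.42, 5.19 and 6.65 in control and 2.82, 2.95 and 2.20 in Al libraries. The highest Al library was well under the lowest control library, and Rab32 fell by 1.09 ± 0.17 on the log2 scale (limma adjusted P = 0.000581). Rab29, a partner of the kinase LRRK2, fell from a mean of 5.22 to 2.70, a log2 fold change of -0.94. Rab38, the third of this subfamily, had 0 reads in all 6 libraries, where 0 reads allow an expected count of up to 3 per library.

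In the ER and Golgi group, which had the most tested members, 2 of 13 rose and 7 fell (15.4% and 53.8%, against 25.5% and 23.7% of all tested genes). The group lists 16 members, and the median log2 fold change was -0.64. Rab1a and Rab1b, which act between the endoplasmic reticulum and the Golgi, moved in opposite directions. Rab1a lies at chr11:20201432-20226856 on the plus strand and Rab1b at chr19:5099205-5107072 on the minus strand. The loop sequences of the pair follow, again with capitals at positions that differ.
Rab1a: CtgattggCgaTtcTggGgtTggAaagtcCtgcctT
Rab1b: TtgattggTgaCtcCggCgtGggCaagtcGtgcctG
The 36 bases differed at 9 positions, 8 of them at the third base of a codon, and encoded the same residues. The whole proteins were 90.7% identical. Rab1a was at 45.9, 46.3 and 54.1 in control and 110.0, 115 and 101 in Al libraries. Each Al library was far above the control range, and the log2 fold change was 1.16 ± 0.11 (limma adjusted P = 4.92e-05). Rab1b was at 72.3, 72.5 and 72.8 in control and 41.0, 38.7 and 46.5 in Al libraries. It fell by 0.79 ± 0.10 on the log2 scale (limma adjusted P = 0.000213), and by 0.53 with centring on GC content, where the call was lost. Rab1b was thus the higher of the pair in each control library, and Rab1a in each Al library.

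Rab34, a Golgi protein also known for the formation of cilia, was at 44.2, 43.0 and 44.6 in control and 13.3, 19.4 and 20.3 in Al libraries. The first Al library was the lowest, and all 3 were under the control range, with a log2 fold change of -1.33 ± 0.16 (limma adjusted P = 0.000132). Rab43, another Golgi member, was at 12.6, 10.9 and 11.3 in control and 3.23, 4.17 and 5.03 in Al libraries, a log2 fold change of -1.48 ± 0.17. Its groups were also well apart. Of its exon bases 75.4% are shared on the same strand with Gm45140, which has no row of its own in the table. Rab2b was at 2.70, 2.58 and 2.55 in control and 0.933, 1.37 and 1.40 in Al libraries, a log2 fold change of -1.04 ± 0.20. Of its exon bases 59.3% are shared with Gm43766 on the opposite strand. Its paralog Rab2a, which like it acts between the endoplasmic reticulum, the Golgi and lysosomes, had means of 31.3 and 32.6 and was not called (log2 fold change 0.05, and -0.73 with TPM).

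Rab6a, which serves retrograde traffic through the Golgi, fell from a mean of 22.6 to 14.5, a log2 fold change of -0.64, or -0.56 without the first Al library and -0.54 with centring on GC content, where the call was lost. It shares 19.0% of its exon bases with Mrpl48 on the opposite strand. Rab33b, a Golgi member that binds the autophagy protein Atg16l1, rose from 5.87 to 10.4, a log2 fold change of 0.82, or 0.34 with FPKM as deposited and not called. It shares 18.7% of its exon bases with Gm38160 on the opposite strand. Rab36 and Rab33a were called lower at low levels, with log2 fold changes of -1.92 and -2.24. Rab33a had 36, 39 and 23 reads in control and 4, 0 and 0 in Al libraries, and with a pseudocount of 1 its log2 fold change was -0.57 and not called. Rab18, Rab39b and Rab30 were not called, at log2 fold changes of -0.28, -0.12 and -0.48. Rab30 was called lower with quantile normalization (-0.77), and Rab30 and Rab18 with FPKM as deposited (-0.86 and -0.77) and TPM (-1.09 and -1.07).

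In the secretory group, which holds the Rab3 and Rab27 proteins, levels were low and 1 member fell. Of 8 members 5 were tested, 0% were called higher and 20% lower, against 25.5% and 23.7% of all tested genes, with a median log2 fold change of -0.50. Rab3d, a Rab3 protein of regulated exocytosis best known in secretory cells, had the largest fall among the Rab members tested. It was at 5.10, 4.50 and 3.54 in control and 0.197, 0.334 and 0.490 in Al libraries, from 748 to 953 reads in control and 17 to 39 reads in Al libraries. The lowest control value was far above the highest Al value. The log2 fold change was -3.39 ± 0.28 (limma adjusted P = 2.75e-05). Rab3a, the main Rab3 protein of synaptic vesicles, had means of 4.21 and 5.31, a log2 fold change of 0.33 without a call. It was -0.44 with TPM, and it was called higher with quantile normalization (0.58) and with centring on GC content (0.71).

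The rest of this group gave few reads. Rab27b had means of 1.26 and 0.859, with ranges that overlapped. No library held more than 49 reads of Rab26 or Rab37. The log2 fold change of Rab37 was -0.99 ± 0.40 (limma adjusted P = 0.0551). Rab3c was not tested because its mean FPKM was under 0.1, with 60, 52 and 64 reads in control and 1, 4 and 4 in Al libraries. Rab3b and Rab27a were not tested either.

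In the Rab8 group, Rab8a, Rab8b, Rab10 and Rab13 carry vesicles to the plasma membrane. All 5 members of the group were tested and 1 rose (20%, against 25.5% of all tested genes). The median log2 fold change was -0.07. Rab12, known as a substrate of LRRK2, was at 7.29, 7.01 and 6.94 in control and 13.9, 15.1 and 16.1 in Al libraries. The ranges were far apart, and the log2 fold change was 1.07 ± 0.10 (limma adjusted P = 5.02e-05). Rab8a had means of 31.4 and 29.2, Rab10 had 27.2 and 28.2, Rab13 had 10.8 and 10.3, and Rab8b had 3.67 and 2.98. None of these was called.

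Of 8 members placed in no compartment group, 6 were tested, 2 rose and 1 fell (33.3% and 16.7%, against 25.5% and 23.7% of all tested genes). Rab20, a hypoxia-responsive member of endosomes and phagosomes, was at 1.52, 2.44 and 2.07 in control and 5.76, 4.11 and 6.72 in Al libraries. Its 97 to 188 reads per library left a wider spread than in the abundant members, and the log2 fold change of 1.41 ± 0.23 (limma adjusted P = 0.000816) was the largest rise among the Rab members tested. Rab20 also shares 25.6% of its exon bases with E230013L22Rik on the opposite strand. Rab40c, which recruits a ubiquitin ligase, was called at a log2 fold change of 0.58, just past the threshold, and lost the call without the second control library (0.49) and without the second Al library (0.52). Rab28, a protein of cilia, fell from a mean of 18.5 to 10.6, a log2 fold change of -0.81. Rab23, Rab24 and Rab42 were not called. Rab24 shares 62.4% of its exon bases with Prelid1 on the opposite strand, and whether the counting used strand is not given in the sources used here.

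The 12 members under the filter were Rab6b, Rab39, Rab19, Rab9b, Rab38, Rab40b, Rab44, Rab25, Rab15, Rab3c, Rab3b and Rab27a. Rab19 and Rab38 had 0 reads in all libraries, and no library had more than 64 reads of any of the 12.

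Shares within a paralog family were compared next, since a share within 1 library does not depend on a scaling by 1 factor per library. Quantile normalization and centring on GC content can move a share, and shares were not computed under them. There were 10 families with 25 shares, and 16 shares did not overlap between the groups. Shares of a family sum to the whole, so in a family of 2 both shares count the same difference. As single levels, 35.1% and 33.1% of all tested genes did not overlap, higher and lower. With 3 libraries against 3, the smallest P that the exact two-sided permutation test allows is 0.1, and each of the 16 had that value (0.156 after Benjamini-Hochberg adjustment over the 25), so none could pass 0.05. Rab1a made up 40.1 ± 2.2% (SD, n = 3) of the Rab1 family in control and 72 ± 3.3% in Al libraries, and Rab1b 59.9% and 28.0%. Rab4a made up 37.0 ± 1.5% and 68.4 ± 6.1% of the Rab4 family. In both families the larger member in control was the smaller one in Al cells.

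In the Rab5 family Rab5b dropped from 17.7 ± 1.4% to 3.33 ± 0.41%, while Rab5c went from 67.0 ± 0.56% to 76.2 ± 3.0% and Rab5a from 15.3 ± 1.1% to 20.5 ± 2.5%. In the Rab3 family Rab3a and Rab3d were near parity in control, at 48.4 ± 4.2% and 50 ± 4.5%, and were at 92.6 ± 2.1% and 6.0 ± 2.6% in Al libraries. Rab2b held 7.70% of the Rab2 family in control and 3.73% in Al libraries. Smaller differences without overlap were seen for Rab11a (54.2% and 58.1%) and Rab31 against Rab22a (68.7% and 72.7% for Rab31). The fold changes of these pairs did not keep the same gap under every scaling. With centring on GC content the log2 fold change was 0.54 for Rab11a and 0.63 for Rab11b, the reverse order. With quantile normalization it was 0.74 for Rab31 and 0.71 for Rab22a. Rab11a kept the larger value with quantile normalization (0.35 against 0.19), as did Rab31 with centring on GC content. In the Rab7, Rab8 and Rab32 families the main shares overlapped between the groups.

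**Figure D3:**
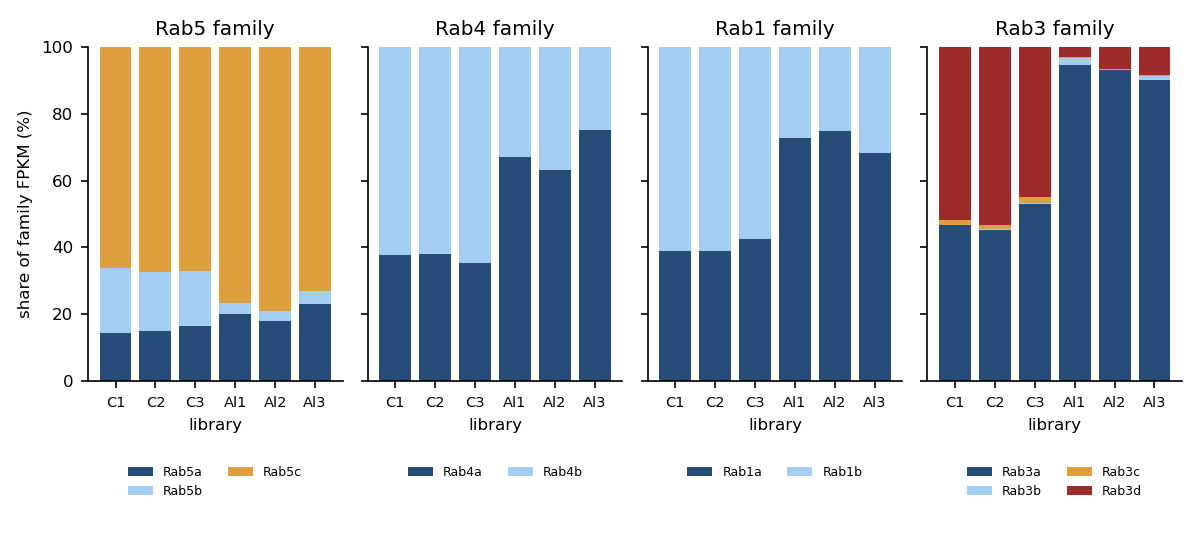
Share of each paralog in the summed FPKM of its family (%, y axis) in each of 6 libraries (C1 to C3 control, Al1 to Al3 aluminum maltolate) for 4 families. The Rab3d segment covers 44.9 to 53.3% of the bar in control and 3.18 to 8.34% in Al libraries, and the Rab1b and Rab4b segments shrink in every Al library.

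The family as a whole can be described by the same kind of share. Early endosome members made up 25.0 ± 0.40% (SD, n = 3) of the summed Rab FPKM in control and 38.1 ± 1.59% in Al libraries. ER and Golgi members went from 30.4 ± 0.115% to 24.2 ± 0.306%, recycling members from 15.9 ± 0.361% to 12.7 ± 0.907%, and secretory members from 1.24 ± 0.133% to 0.686 ± 0.0485%. Early endosome members thus passed ER and Golgi members as the largest group in every Al library. None of the 7 group shares overlapped between control and Al libraries. As single levels, 35.1% and 33.1% of all tested genes did not overlap, higher and lower. The 7 shares sum to the whole, so a rise of 1 group lowers the shares of others. The late endosome and lysosome, Rab8 and remaining members went from 11.1% to 9.73%, from 9.36% to 8.34% and from 6.88% to 6.27%. A lower share is not by itself a lower level. Median log2 fold changes were -0.64 for ER and Golgi, 0.16 for recycling and -0.50 for secretory members. They were -0.13 for late endosome and lysosome, -0.07 for Rab8 and 0.11 for the remaining members. The direction of the whole family depended on the scale: its summed level rose from 856 to 1030 when libraries were scaled by median ratios, and its share of all summed FPKM was 0.272% in control and 0.190% in Al libraries.

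The genes that act on Rab proteins were read from lists of 141 genes, of which 123 were tested. With Al 13 were called higher and 40 lower (10.6% and 32.5%, against 25.5% and 23.7% of all tested genes), and the median log2 fold change was -0.39, against 0.03 over all tested genes. With FPKM as deposited 6 were called higher and 81 lower, against 13.5% and 41.3% of all tested genes. With TPM the counts were 4 and 92, against 8.85% and 52.2%. With quantile normalization they were 16 and 41, against 21.3% and 23.2%. With centring on GC content they were 22 and 33, against 32% and 18.3%. Of 8 tested genes for lipid attachment, chaperoning and extraction, 1 rose and 1 fell (12.5% each, against 25.5% and 23.7% of all tested genes). Rabggtb, the catalytic beta subunit of the transferase that attaches the lipid anchor, rose from a mean of 39.7 to 137, a log2 fold change of 1.80 ± 0.12 (limma adjusted P = 1.17e-05). It was also called with FPKM as deposited (1.31) and TPM (1.01). Rabif, a chaperone of Rab proteins without nucleotide, fell from 6.64 to 3.30, a log2 fold change of -1.02.

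Of 41 tested GEF genes, 3 rose and 19 fell (7.32% and 46.3%, against 25.5% and 23.7% of all tested genes), and the median log2 fold change was -0.51. The falls were led by Hps1 (7.22 to 1.76, log2 fold change -2.00), which with Hps4 loads Rab32 and Rab38, by Rgp1 (6.12 to 1.79, -1.72), which serves Rab6a, and by Dennd6a (2.38 to 0.688, -1.66), which serves Rab14. Smcr8, a DENN domain protein and partner of C9orf72, rose from 20.5 to 91.2, a log2 fold change of 2.15 ± 0.099 (limma adjusted P = 4.19e-06). It is counted here by list, and whether it acts as an exchange factor was not tested. The other 2 that rose were Trappc6a (0.77), a subunit of the TRAPP complexes, and Rabgef1 (0.75), an exchange factor of Rab5, and both lost the call with FPKM as deposited (0.29 and 0.27) and with TPM (-0.01 and -0.03). A few more are named here after their values were seen, because they act on members described above. The Rab5 exchange factors Rin1, Rin2 and Rin3 fell, with means of 21.6 and 12.9, 12.9 and 4.06, and 3.48 and 1.91, though Rin3 was not called with quantile normalization (-0.54) or centring on GC content (-0.56). Gapvd1, another Rab5 exchange factor of the list, had a log2 fold change of 0.02 and was not called. Hps4 fell from 10.7 to 5.27, and Madd, an exchange factor of Rab3, from 5.84 to 2.33.

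Of 32 tested GAP genes, 3 rose and 7 fell, with a median log2 fold change of -0.37. Tbc1d4, which acts on Rab10, fell from 2.47 to 0.813 (log2 fold change -1.50), Tbc1d5, which acts on Rab7, from 6.63 to 2.62 (-1.31), and Rabgap1 from 4.95 to 2.56 (-0.93). Tbc1d2 and Tbc1d15, both of which act on Rab7, rose with log2 fold changes of 0.98 and 0.77. With TPM these were 0.22 and -0.01 and neither was called, and with FPKM as deposited they were 0.51 and 0.29, again without a call. The shares of GAP genes called higher and lower were 9.38% and 21.9%, against 25.5% and 23.7% of all tested genes.

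Of 39 tested effector genes, 6 rose and 12 fell (15.4% and 30.8%, against the same background), with a median log2 fold change of -0.36. Fyco1, which links Rab7 to kinesin, fell from 3.99 to 0.896 (log2 fold change -2.05), Rab11fip2, which binds Rab11, from 2.56 to 0.672 (-1.80), and the phosphatase gene Ocrl from 5.36 to 1.59 (-1.68). Bicd2, the dynein adaptor that binds Rab6, rose from 17.6 to 35.4 (0.99), a call that was lost with FPKM as deposited (0.50) and TPM (0.20). The other 5 effectors that rose had a mean FPKM under 1. The Rab5 effectors Appl1 and Appl2, also named after their values were seen, fell from 5.14 to 2.77 and from 6.63 to 2.17, and Appl1 was not called with quantile normalization (-0.57). Other Rab5 effectors of the list were not called: the log2 fold change was -0.54 for Eea1, -0.38 for Rabep1, -0.30 for Rabep2, 0.10 for Rufy1 and 0.54 for Rbsn. Of 3 tested genes for kinases and a phosphatase of Rab proteins, 1 fell (33.3%, against 23.7% of all tested genes).

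**Figure D4:**
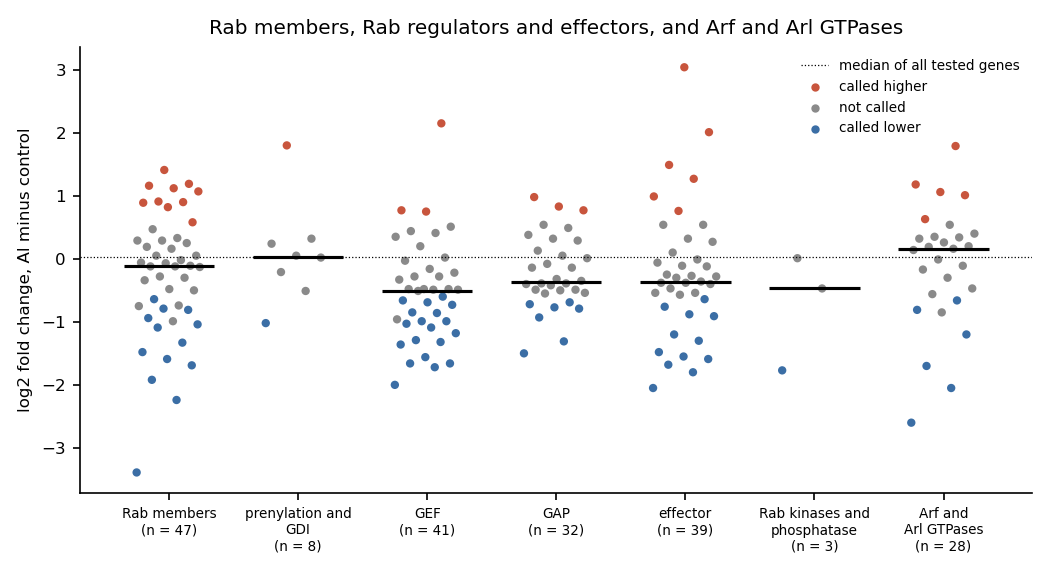
The log2 fold change (Al minus control, y axis) of every tested gene of the Rab family, of 5 lists of Rab regulators and effectors, and of the Arf and Arl GTPases. Thick bars are list medians and the dotted line is the median of all tested genes. The GEF, GAP and effector medians lie at -0.51, -0.37 and -0.36, and the Rab members spread from -3.39 to 1.41.

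The Arf and Arl GTPases, another family of membrane traffic, were read in the same way. Of 28 tested Arf and Arl genes, 5 rose and 6 fell (17.9% and 21.4%, against 25.5% and 23.7% of all tested genes), with a median log2 fold change of 0.15. No difference between this family and the Rab members was tested.

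**Figure D5:**
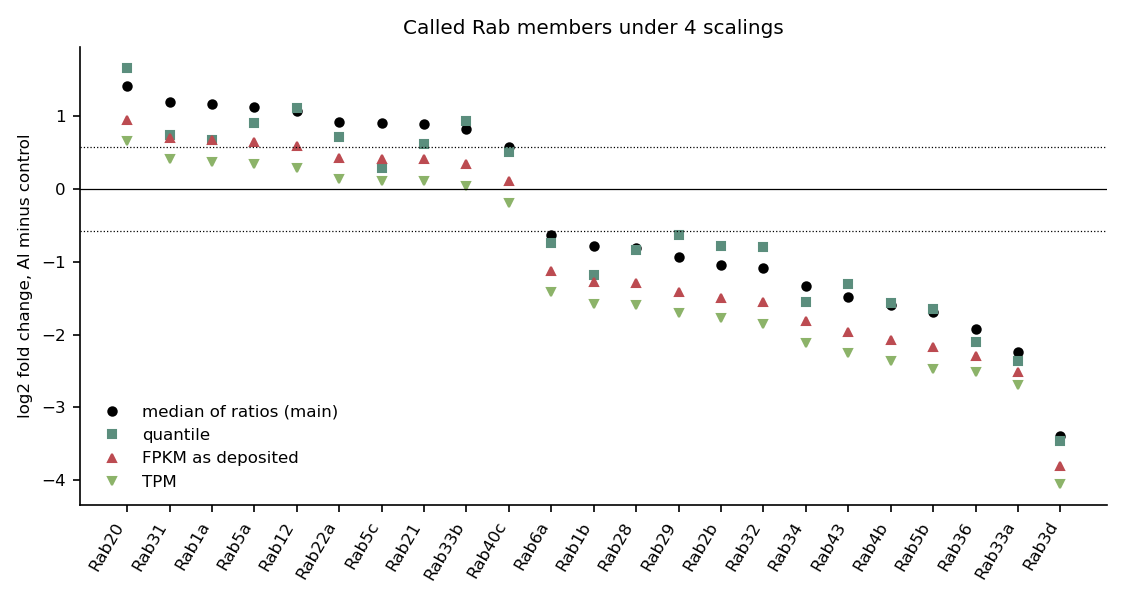
The log2 fold change (Al minus control, y axis) of the 23 called Rab members under 4 scalings between libraries: median of ratios, quantile normalization, FPKM as deposited and TPM. Dotted lines mark 0.58 in either direction. The 13 members called lower lie under the lower line with each of these 4. Of the 10 called higher, Rab20 alone is past the upper line with TPM (0.65, not called after adjustment), and Rab40c is under 0 there.

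Of the 24 members without a call, some gained one under another setting. With FPKM as deposited 9 were called lower, namely Rab18, Rab27b, Rab30, Rab35, Rab37, Rab42, Rab7b, Rab8a and Rab8b. With TPM 18 were called lower, these 9 and Rab10, Rab13, Rab14, Rab17, Rab23, Rab2a, Rab39b, Rab7 and Rab9. With quantile normalization Rab30, Rab35, Rab37 and Rab42 were called lower and Rab3a higher. Centring on GC content called Rab11b and Rab3a higher. Rab37 was also called lower with no filter, with no trend and without the first Al library, and Rab42 without the third Al library.

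GC content was compared because centring on it moved 4 calls. The median GC at the third base of codons was 64.6% for the 10 members called higher, 67.1% for the 13 called lower and 59.2% for the 24 not called, against 61.5%, 61.2% and 60.3% over all tested genes with a value. Its part in the results was not tested.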

How the data were processed

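RNA was measured in 3 control and 3 Al input libraries, made with a stranded mRNA kit. The deposited values are FPKM, 1 per gene symbol and library, made by the authors. The study's methods name Trimmomatic, SortMeRNA, HISAT2 and mm10, the submitters' processing notes name fastp, HISAT2, HTSeq and GRCm39, and a further build is named in the deposited design, so the build behind the values is uncertain. Positions and sequences here are from GENCODE on GRCm38.

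FPKM were divided by median-of-ratios size factors (0.802 to 1.209), and log2(value + 0.1) was tested with limma 3.58.1 (lmFit, eBayes with trend) in R 4.3.3, over 12889 genes whose mean FPKM reached 0.1. Fold changes are on this scale, which understates changes of low genes. The study's count test was not used, since the table holds no counts. Whole reads were recovered from the FPKM steps for 17687 of 17688 genes above 0. The recovery and the fit were tested on simulated data. Read numbers are estimates, since a recovered count can be off by a common factor. Paralog shares were compared by an exact permutation test. Values in every library are given for members called at an absolute log2 fold change of at least 1 and a mean FPKM of at least 1, and for the 5 highest in control; of each regulator list the 3 largest rises and 3 largest falls among called genes at that same level are named. Members and lists were chosen with earlier results of these data known. Alternatives covered scaling, pseudocount, filter, trend, replicate block, each library left out, voom and, chosen after seeing the data, GC centring. Counting intervals and limits for 0 cover counting error only. Python 3.11.15, numpy 2.4.6, pandas 2.3.3 and matplotlib 3.10.9 were used.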

Additional observations from a re-analysis of the deposited data

How the results depend on the processing

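Scaling between libraries had the largest effect. Against 10 Rab members called higher and 13 lower, FPKM as deposited gave 5 and 22 (13.5% and 41.3% of all tested genes), and TPM gave 0 and 31 (8.85% and 52.2% of all tested genes; limma; at an unadjusted P under 0.05, 1 member, Rab20, was higher with TPM). The 53 called genes of the regulator and effector lists became 87 and 96. With TPM the log2 fold changes of Rab10 (-0.73), Rab14 (-0.62), Rab2a (-0.73), Rab7 (-0.59), Rab40c (-0.20), Rab11a (-0.31), Rab11b (-0.53), Rab24 (-0.49), Rab3a (-0.44) and Rab4a (-0.49) turned negative, as did those of Trappc6a (-0.01), Rabgef1 (-0.03) and Tbc1d15 (-0.01). The cause was not tested. Quantile normalization, other pseudocounts and filters, no trend, unadjusted P, voom on recovered reads and GC centring, added after seeing the data, left all 3 counts within 1.5 times. The count of called regulators and effectors sums both directions. With GC centring 22 of them were higher and 33 lower, against 13 and 40 in the main fit.

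Leaving out 1 library at a time gave 9 to 10 higher and 13 to 14 lower Rab members. In the same fits 23.4 to 26.8% of all tested genes were called higher and 21.6 to 25% lower. The called regulators and effectors numbered 48 to 58, and 16 to 21 paralog shares did not overlap. Set beside each alternative in turn, the 47 tested Rab members kept their call or lack of one in 730 of 792 comparisons, gained a call in 38 and lost one in 24. The sign of the log2 fold change differed in 42, of which 9 were with FPKM as deposited, 10 with TPM, 9 with quantile normalization and 8 with GC centring, and none was a call in both directions.

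The replicate numbers did not pair the libraries: same-numbered deviations correlated at -0.08, -0.06 and -0.11 over 10349 genes. With a replicate block 10 Rab members were higher and 13 lower, against 25.2% and 23.3% of all tested genes. In that fit 52 regulators and effectors were called. The exact test on paralog shares has no blocked form here. How small a difference these libraries could show was not tested.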
